A study of Homo sapiens with 8 samples.

Results

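The genes of the urea cycle were examined in Hep3B, a human hepatocellular carcinoma (HCC) cell line, as 9 genes chosen by name: CPS1, OTC, ASS1, ASL, ARG1, ARG2, NAGS, SLC25A15 and SLC25A13. Of these 9, 8 were among the 16169 genes with a row in at least 1 of the 2 deposited tables. OTC had no row in either table, ARG1 had a row only in the knockout table, and the other 7 had rows in both. The genes were chosen with the values of these libraries already known, so their levels and fold changes are given as a description. Calls from the fit over all genes are counted for them only beside the share of all genes called. RNA was sequenced in 8 libraries from 4 conditions of 2 libraries each. Hep3B cells, labelled wild type, were set against SOX4-/- Hep3B cells made with CRISPR/Cas9, for which no siRNA is named. Hep3B cells transfected with a control (scramble) siRNA were set against Hep3B cells transfected with STAT6 siRNA; the genotype labels give the former as wild type and the latter as a STAT6 knockdown. The labels give MEM with fetal bovine serum for all cells, and the study's methods name puromycin in the medium of the knockout cells and not for the others, so that the drug and the knockout cannot be told apart. Libraries were made with a stranded mRNA kit. The study's methods name 2 knockout lines (#1 and #2) as the source of the deposited knockout data. The labels number the knockout libraries 1 and 2 without naming a line. SOX4 and STAT6 are transcription factors, and the comparisons ask which transcripts differ when either is removed. Library totals ran from 16266282 to 25353113 expected counts, the estimated read counts of a transcript or gene.

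The urea cycle turns ammonia into urea and runs in full only in hepatocytes. It starts inside the mitochondrion, where CPS1 joins ammonia and bicarbonate into carbamoyl phosphate and OTC passes the carbamoyl group to ornithine to give citrulline. Citrulline leaves for the cytosol, where ASS1 joins it to aspartate, ASL splits the product into arginine and fumarate, and ARG1 cuts arginine into urea and ornithine. NAGS makes N-acetylglutamate, without which CPS1 is inactive. SLC25A15 exchanges ornithine for citrulline across the mitochondrial membrane and SLC25A13 exports aspartate. ARG2 is the mitochondrial arginase, common outside the liver. CPS1 and ARG1 proteins serve as markers of hepatocytes, and loss of urea cycle enzymes is known in liver tumours.

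The promoters of CPS1, ASL and ARG1 are shown because these 3 genes were higher in the SOX4 knockout libraries, and CPS1 also in the STAT6 siRNA libraries. Each runs from 250 bases before to 50 bases after a start site and is taken from RefSeq (GRCh38.p14), plus strand, 5′ to 3′. They lie at chr2:210477435-210477734 (CPS1, the first of its 3 start sites), chr7:66075569-66075868 (ASL) and chr6:131572976-131573275 (ARG1). Capitals mark matches to a SOX core (ACAAAG or ACAATG, or the same words with T as their first base, TCAAAG and TCAATG, on either strand) or to the spaced STAT6 motif (TTC, then any 4 bases, then GAA), which reads the same on both strands.
CPS1: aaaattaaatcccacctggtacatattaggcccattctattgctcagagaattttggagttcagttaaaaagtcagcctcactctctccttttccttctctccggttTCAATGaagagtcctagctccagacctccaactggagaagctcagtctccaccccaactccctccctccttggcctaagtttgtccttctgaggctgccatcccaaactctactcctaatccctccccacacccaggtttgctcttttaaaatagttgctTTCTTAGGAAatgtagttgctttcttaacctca
ASL: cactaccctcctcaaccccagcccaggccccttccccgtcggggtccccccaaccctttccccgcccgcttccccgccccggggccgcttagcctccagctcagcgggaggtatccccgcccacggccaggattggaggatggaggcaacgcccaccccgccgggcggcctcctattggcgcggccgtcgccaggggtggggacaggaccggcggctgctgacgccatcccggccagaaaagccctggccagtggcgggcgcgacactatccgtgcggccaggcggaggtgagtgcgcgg
ARG1: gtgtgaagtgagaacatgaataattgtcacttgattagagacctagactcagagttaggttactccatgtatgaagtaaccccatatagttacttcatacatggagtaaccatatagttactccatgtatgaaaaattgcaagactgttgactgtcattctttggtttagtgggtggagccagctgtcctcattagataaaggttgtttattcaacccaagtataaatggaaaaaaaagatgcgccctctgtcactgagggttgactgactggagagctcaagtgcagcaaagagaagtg
The CPS1 window held TCAATG from 143 to 138 bases before the start site and TTCTTAGGAA from 17 to 26 bases after it. No match to either motif was found in the ASL and ARG1 windows. Over all 12 promoter windows of the 9 genes, 3 held a SOX core (the windows at the first 2 CPS1 start sites and that of OTC) and 1 held the STAT6 motif. Of all 35116 RefSeq promoter windows of this length, 37.5% held a SOX core and 6.44% the STAT6 motif. None of the 3 CPS1 windows covers the start, at position 210556599, of the transcript with most CPS1 counts summed over the siRNA libraries. The windows differed in base composition: G and C made up 45.3% of the CPS1 window and 40.0% of the ARG1 window, against 74.0% of the ASL window.

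SOX4, the gene targeted in the knockout, stood at 732 and 250 CPM (TMM-normalized counts, scaled to the size of each library) in Hep3B libraries 1 and 2 and at 261 and 272 in SOX4 knockout libraries 1 and 2. The ranges overlapped, and the log2 fold change of -0.83, with its standard error (SE) of 0.54, did not pass edgeR's quasi-likelihood test (adjusted p = 0.372). A Cas9 edit can leave the transcript level in place, so this value does not check the knockout label. STAT6 stood at 29.3 and 12.4 CPM in the Hep3B pair and 2.42 and 1.99 CPM in the knockout pair, and it fell by 3.18 (log2; SE 0.57, adjusted p = 0.0275 from edgeR). That call was lost without either knockout library (adjusted p = 0.141 without library 1 and 0.196 without library 2), with log2 fold changes of -3.35 and -3.05. Calls over all genes fell to 73 and 21 in these fits, and rose to 2298 and 1322 without Hep3B libraries 1 and 2. In each such fit the lone library is assumed to vary like the other condition. Over all alternatives the adjusted p ran from 1.87e-06 with DESeq2 to 0.196. In the siRNA table STAT6 stood at 46.2 and 34.0 CPM with scramble siRNA and at 11.4 and 6.50 with STAT6 siRNA. Both STAT6 siRNA libraries were below both controls, a log2 difference of -2.22 (SE 0.72, adjusted p = 1.00 from edgeR). The result changed when the library number entered the fit as a block, as given further on.

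Replicate libraries differed from each other by much more than counting error, and Hep3B library 1 stood apart from library 2 in several of the genes described here. In the siRNA table the difference between the libraries numbered 2 and 1 followed the GC content of the transcripts. Its Spearman correlation with GC content across 13405 genes was -0.76 in the scramble pair and -0.82 in the STAT6 siRNA pair, so GC-rich transcripts were lower in both libraries numbered 2. Genes share their library, and these correlations describe the libraries. ASL and NAGS have GC-rich transcripts and showed that pattern, as given below.

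Per transcript length, the 8 genes with rows fell into a group of 6 at moderate levels and a pair, CPS1 and ARG1, near or at 0. In Hep3B the mean level, in CPM per kilobase, was 77.1 ± 43.6 (SD, n = 2) for ASS1 and 30.4 ± 27.1 for ARG2. It was 17.3 ± 1.63 for ASL, 16.9 ± 1.56 for SLC25A13, 6.07 ± 3.73 for NAGS and 5.72 ± 0.74 for SLC25A15. CPS1 stood at 0.0480 ± 0.0524, and ARG1 at 0 in both libraries. ASS1 and ARG2, ARG2 and ASL, ASL and SLC25A13, and NAGS and SLC25A15 are neighbours in this order whose libraries overlapped or lay within their spread. CPS1 was below each of the other 6 genes with counts in each of the 8 libraries. In Hep3B RNA the cytosolic steps from citrulline to arginine, the mitochondrial arginase and the carriers were measurable, and the first mitochondrial step was at or near the detection limit.

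**Figure D1:**
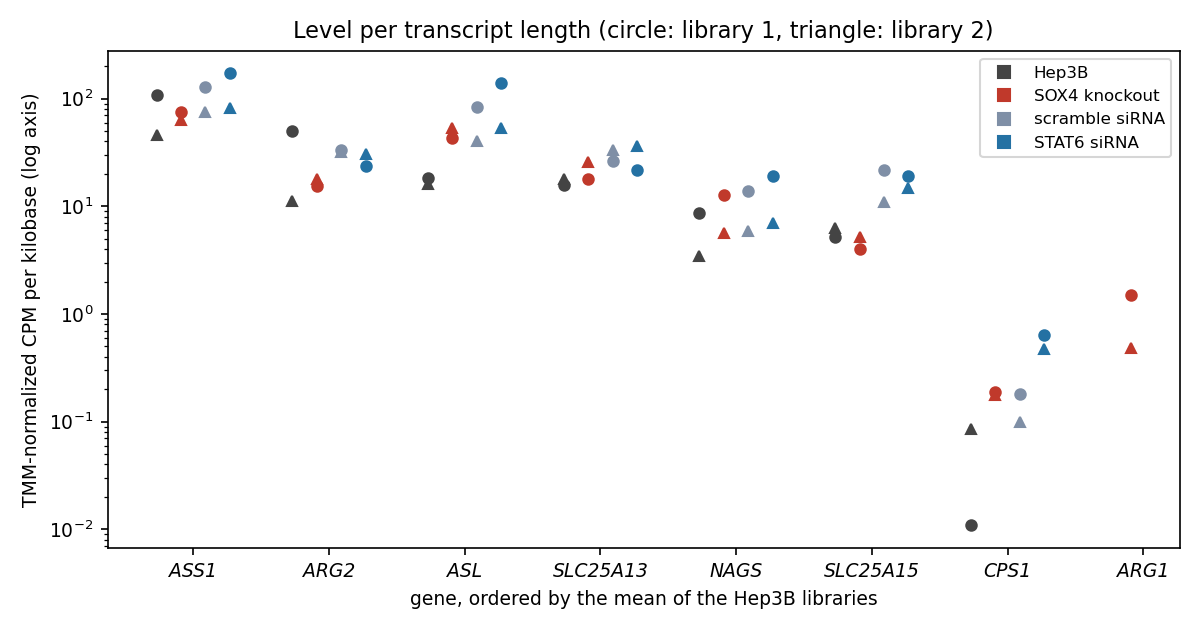
Level of each urea cycle gene per transcript length (TMM-normalized CPM per kilobase, log axis) in each library, with the 4 conditions in colour. CPS1 lies below the 6 genes to its left in every library; ARG1 is plotted only for the SOX4 knockout libraries, since it had 0 counts in Hep3B and no row in the siRNA table, and OTC had no row.

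CPS1, the entry enzyme of the cycle (chr2:210477682-210679107, hg38, plus strand), had 1 and 10 expected counts in Hep3B libraries 1 and 2 and 32 and 18 in SOX4 knockout libraries 1 and 2. On the CPM scale these were 0.0520 and 0.495 against 1.06 and 0.894. Both knockout libraries were above both Hep3B libraries, a log2 difference of 1.88 (SE 0.95), or 3.68-fold. CPS1 reached the minimum count in both knockout libraries but in only 1 Hep3B library, so it entered the test through the knockout. The Hep3B value rests on very few reads: the 95% Poisson interval of the count was 0.03 to 5.57 in library 1 and 4.80 to 18.4 in library 2, and the interval covers counting error only. Leaving out a library moved the log2 fold change between 1.00 (without Hep3B library 1) and 4.14 (without Hep3B library 2). In the siRNA table CPS1 had 17 and 12 counts with scramble siRNA and 44 and 62 with STAT6 siRNA, or 1.05 and 0.576 against 3.71 and 2.77 CPM. Both STAT6 siRNA libraries were above both controls, a log2 difference of 1.95 (SE 0.80), or 3.87-fold. This difference stayed between 1.58 and 2.49 on the log2 scale when any 1 library was left out. The log2 difference was close in size for the SOX4 knockout and for STAT6 siRNA, although the difference between them was not tested. The control levels were not alike: CPS1 in the scramble libraries was about as high as in the SOX4 knockout libraries.

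The CPS1 counts were spread over several RefSeq transcripts. The transcript that begins at the first start site had 0 counts in both Hep3B libraries and 16.4 and 3.45 in the SOX4 knockout libraries. A transcript with a start further inside the gene, and the same end, had 0 and 10.0 counts in Hep3B and 12.1 and 2.56 in the knockout. Another, shorter one had 1.00 and 0 counts in Hep3B and 3.52 and 11.99 in the knockout. No transcript by itself had enough reads to compare conditions. In the siRNA table the inner-start transcript held 86.3% of the CPS1 counts over the 4 libraries. It had 16.5 and 5.10 counts with scramble siRNA and 35.7 and 59.0 with STAT6 siRNA. The transcript from the first start site had 0.50 and 6.87 counts with scramble siRNA and 8.26 and 2.90 with STAT6 siRNA. In scramble library 2 it was therefore above the inner-start transcript.

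OTC, the second mitochondrial enzyme (chrX:38352545-38421450, hg38), had no row in either table. The tables hold transcripts that sum to at least 10 counts over their 4 libraries, so an OTC transcript below that sum would have no row. NAGS (chr17:44004546-44009063), whose product switches CPS1 on, stood at 18.99 and 7.48 CPM in the Hep3B pair and 27.7 and 12.4 CPM in the knockout pair. It stood at 30.5 and 12.8 CPM with scramble siRNA and at 41.9 and 15.4 with STAT6 siRNA. In all 4 conditions library 1 was above library 2, and the conditions overlapped in both comparisons. The log2 differences were 0.66 (SE 0.59) for the knockout and 0.35 (SE 0.75) for STAT6 siRNA. Leaving out any 1 library gave -0.05 to 1.45 for the knockout and -0.49 to 1.18 for STAT6 siRNA. With offsets for GC content and length the NAGS values were 0.02 and 0.05.

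SLC25A15, the ornithine carrier (chr13:40789412-40810111), stood at 8.24 and 9.90 CPM in the Hep3B pair and 6.35 and 8.24 CPM in the knockout pair, so that the ranges met. It stood at 34.5 and 17.5 CPM with scramble siRNA and at 30.4 and 23.3 with STAT6 siRNA. Its log2 fold change was -0.25 (SE 0.45) for the knockout and 0.00 (SE 0.69) for STAT6 siRNA. SLC25A15 has 5 named pseudogenes, which can take or give reads. SLC25A13, the aspartate carrier (chr7:96120220-96322147, minus strand), stood at 49.9 and 57.0 CPM in the Hep3B pair and 56.5 and 81.5 CPM in the knockout pair. It stood at 82.5 and 105.7 CPM with scramble siRNA and at 68.0 and 114.7 with STAT6 siRNA. The log2 differences were 0.43 (SE 0.35) and -0.07 (SE 0.59), and the groups overlapped in both comparisons.

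**Figure D2:**
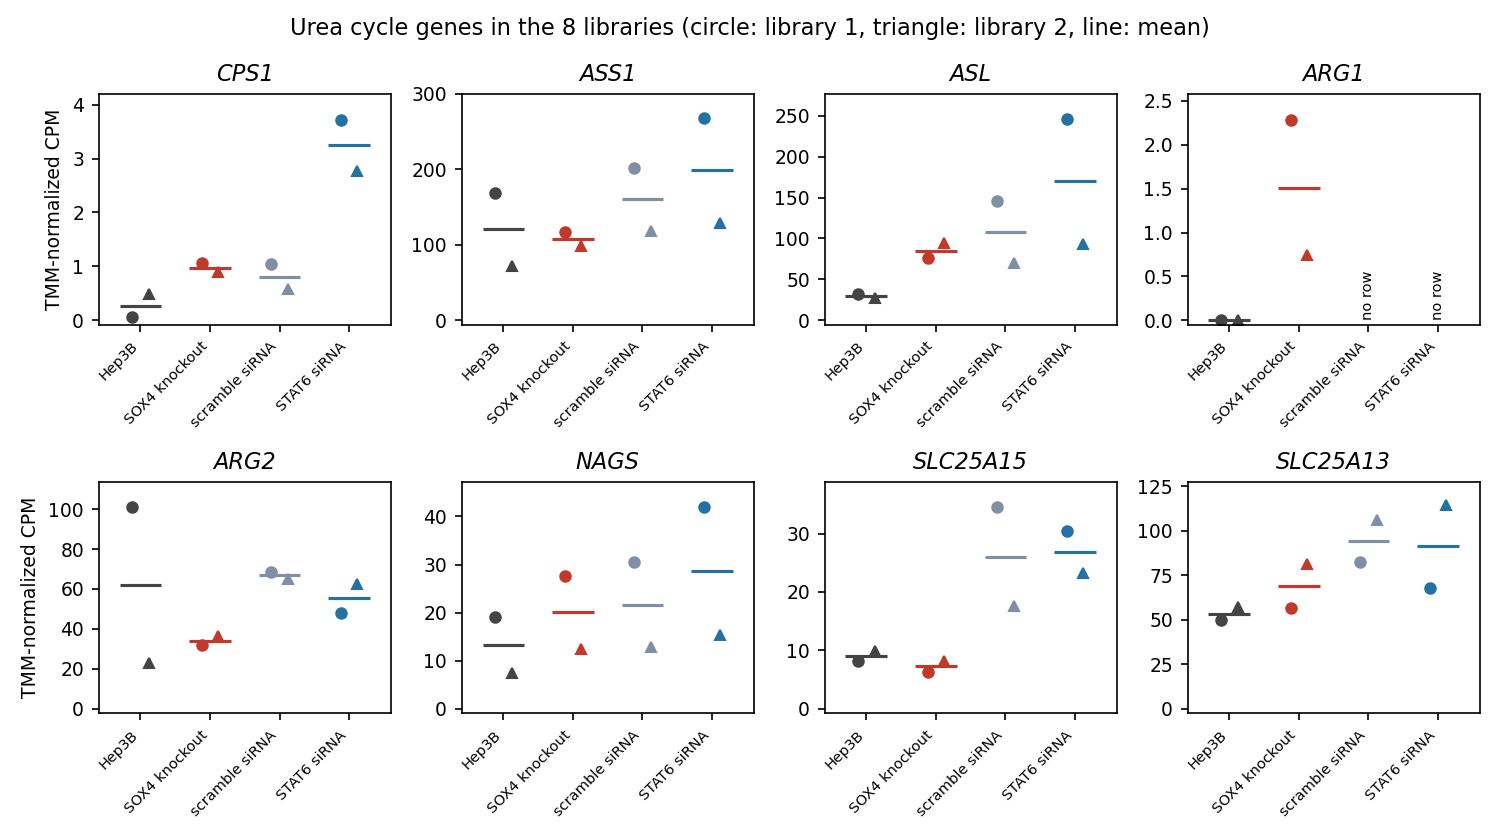
TMM-normalized CPM of the 8 urea cycle genes with rows, 1 panel per gene with its own axis from 0, in the 2 libraries of each of the 4 conditions; lines are means. The CPS1 panel shows both STAT6 siRNA libraries (3.71 and 2.77) above all others, the ASL panel shows the Hep3B libraries (32.2 and 26.6) below all others, and ARG1 is at 0 in Hep3B.

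ASS1, which joins citrulline to aspartate (chr9:130444929-130501274), was the most abundant of these genes per length in Hep3B. It stood at 169 and 72.4 CPM in the Hep3B pair and 117 and 98.2 CPM in the knockout pair, with both knockout libraries between the Hep3B libraries. It stood at 202 and 119 CPM with scramble siRNA and at 268 and 129 with STAT6 siRNA, again with overlap. The log2 differences were -0.10 (SE 0.46) and 0.26 (SE 0.60). For the knockout the value was 0.60 without Hep3B library 1 and -0.61 without Hep3B library 2. For STAT6 siRNA leaving out any 1 library gave -0.31 to 0.76. ASS1 has 11 named pseudogenes, so that part of its reads may have been assigned elsewhere.

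ASL, which releases arginine and fumarate (chr7:66075798-66093558), was higher in the SOX4 knockout. It stood at 32.2 and 26.6 CPM in Hep3B libraries 1 and 2 and at 75.7 and 94.1 in SOX4 knockout libraries 1 and 2. The replicates were close and the groups far apart, a log2 difference of 1.59 (SE 0.35), or 3.01-fold. Leaving out any 1 library gave 1.42 to 1.73, with ASL called only without Hep3B library 1, and offsets for GC content and length gave 1.05, where it was not called. ASL was called under 7 of 13 alternatives. Its 4 RefSeq transcripts did not all carry the same share: the main one held 59.1% of the ASL counts in the knockout comparison and 58.7% in the siRNA comparison. With scramble siRNA ASL stood at 145.7 and 70.3 CPM and with STAT6 siRNA at 245.7 and 93.8, so that library 1 was above library 2 in both conditions and the groups overlapped. The log2 fold change for STAT6 siRNA was 0.59 (SE 0.64), and it ran from -0.20 to 1.29 when a library was left out. A protein-coding gene on the same strand overlaps ASL in GENCODE release 29, and ASL has 1 named pseudogene.

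ARG1, the cytosolic arginase that releases urea (chr6:131573144-131584332), had 0 counts in both Hep3B libraries. It had 69 and 15 counts in SOX4 knockout libraries 1 and 2, or 2.28 and 0.739 CPM. Against a set limit of 3 counts in each Hep3B library, the mean of the knockout libraries was 9.91-fold higher. Knockout library 2 alone was 4.85-fold above that limit. The 95% Poisson interval of a count of 0 reaches 3.69, above the limit, so 9.91 is no lower bound at that level. MED23 lies over ARG1 on the opposite strand, and the sources used here do not say whether counting used the strand. MED23 stood at 41.5 and 53.0 CPM in the Hep3B pair and 46.5 and 32.1 CPM in the knockout pair, and its part in the ARG1 counts was not tested. In the siRNA table ARG1 had no row.

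ARG2, the mitochondrial arginase (chr14:67619798-67651720), varied widely between the Hep3B libraries, at 101 and 22.9 CPM. The SOX4 knockout libraries lay between them at 31.8 and 36.5, a log2 difference of -0.81 (SE 0.63). Its sign rested on Hep3B library 1: without that library the log2 fold change was 0.59, and without Hep3B library 2 it was -1.53. With scramble siRNA ARG2 stood at 68.3 and 65.2 CPM and with STAT6 siRNA at 48.2 and 62.5. Both STAT6 siRNA libraries were below both controls by a small margin, a log2 difference of -0.31 (SE 0.60). VTI1B lies over ARG2 on the opposite strand and stood between 20.2 and 30.7 CPM in all libraries.

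**Figure D3:**
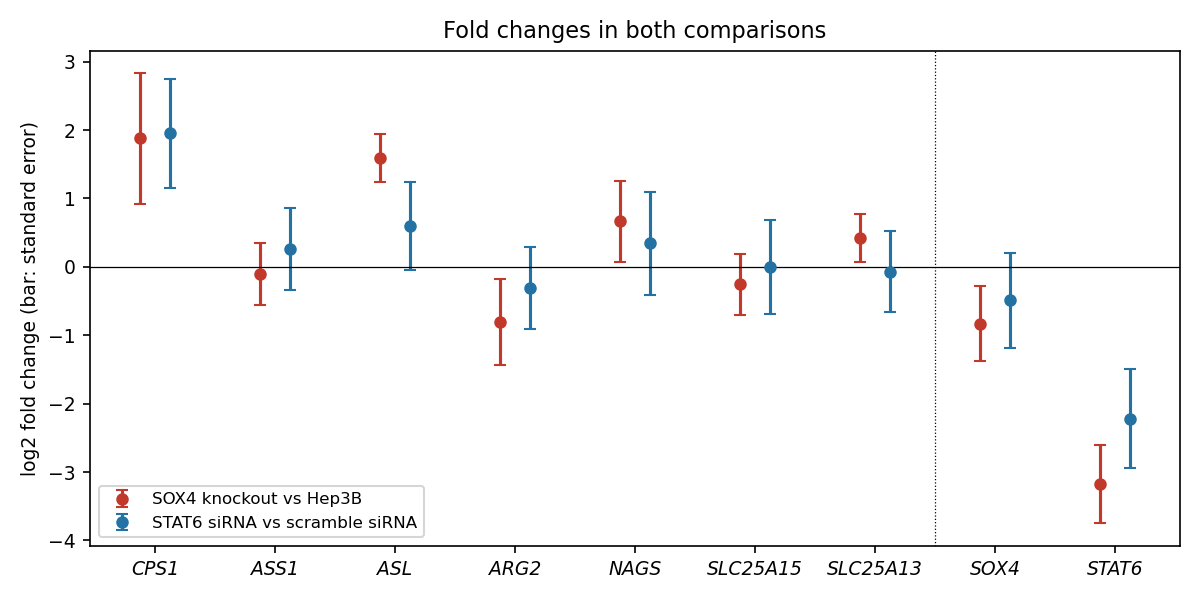
Log2 fold change of the urea cycle genes (left of the dotted line) and of SOX4 and STAT6 (right) in the SOX4 knockout against Hep3B and in STAT6 siRNA against scramble siRNA; bars are standard errors from edgeR. CPS1 lies near 1.9 in both comparisons with wide bars, ASL is at 1.59 in the knockout and 0.59 with STAT6 siRNA, and ARG1 is left out because its Hep3B counts are 0.

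In the SOX4 knockout, 2 of the 8 urea cycle genes tested (ASL and ARG1, both higher) passed an adjusted p of 0.05 in edgeR's fit over all genes, and 0 were lower. Over all 14415 genes, 849 passed (5.89%), of which 648 were higher (4.5% of the genes tested) and 201 lower (1.39%). Since the genes were chosen with these values known, nothing is read from that count. ARG1 and CPS1 passed the filter on low counts only through the knockout libraries, which favours a higher value there, so the ARG1 call is no independent test. The median log2 fold change of the other 6 genes was 0.16, against 0.01 over all genes tested, and nothing is read from it either. Both calls were lost without either knockout library, as were most calls over all genes. Under other settings given further on, 1 or both were lost. The libraries of the 2 conditions did not overlap for 4 of the 8 genes (CPS1, ASL and ARG1 higher, SLC25A15 lower by less than 0.01 CPM), against 58.3% of all genes. For STAT6 siRNA 0 of the 7 genes tested passed, as did 0% of all 13554 genes. At an unadjusted p below 0.05 there were 14 genes, and DESeq2 also called 0. CPS1 was called when the library number entered the fit as a block, as given further on. The groups did not overlap for 2 of the 7 genes (CPS1 higher, ARG2 lower), against 7.66% of all genes. In bulk RNA, more cells with a transcript and more transcript per cell cannot be told apart.

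Genes of 9 neighbouring pathways were set beside the cycle, 91 in all, of which 81 had rows in the knockout table and 78 were tested. In the SOX4 knockout 9 of these 78 passed the test, 6 higher and 3 lower, beside 5.89% of all genes. Without either knockout library these calls were lost, as were most calls over all genes, so the loss does not single out these genes. The median log2 fold change was 0.51, and 56 of the 78 were above 0, against 50.4% of all genes. Of the 78, 6 entered the test only through the knockout libraries, where that favours a value above 0. For STAT6 siRNA 0 of 74 passed (0% of all genes), the median was 0.08, and 42 were above 0, against 46.3% of all genes. At an unadjusted p below 0.05 in edgeR's test there were 0 of these 74 genes, where 0.103% of all genes were below it. In the knockout there were 30 of the 78 (38.5%), where 26.0% of all genes were below it. The siRNA fit did not call STAT6 itself, so these 2 counts cannot be compared directly. With the library number as a block, 1 of these genes passed for STAT6 siRNA, as given further on.

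The genes that use the glutamate, ammonia and aspartate around the cycle moved in both directions in the SOX4 knockout, with 3 of 10 passing (5.89% of all genes). ASNS, asparagine synthetase, stood at 340 and 241 CPM in the Hep3B pair and 43.9 and 51.6 CPM in the knockout pair, and it fell by 2.55 (log2; SE 0.38, adjusted p = 0.0192 from edgeR). GPT2, the mitochondrial alanine transaminase, stood at 372 and 205 CPM in the Hep3B pair and 67.1 and 69.5 CPM in the knockout pair, and fell by 2.02 (SE 0.42, adjusted p = 0.0385 from edgeR). Both knockout libraries were far below both controls in each of these genes. GLUD2, a glutamate dehydrogenase, stood at 60.2 and 38.9 CPM in the Hep3B pair and 230 and 157 CPM in the knockout pair, and rose by 2.03 (SE 0.41, adjusted p = 0.0363 from edgeR). GLUD2 is nearly identical to GLUD1, so reads cannot be placed with certainty between them. GLUD1 had a log2 fold change of 1.98 (adjusted p = 0.0661). GPT, the cytosolic alanine transaminase, had a log2 fold change of 2.76 (adjusted p = 0.0761), opposite in sign to GPT2. For STAT6 siRNA ASNS had a log2 fold change of -0.55.

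Among genes that take arginine elsewhere, to creatine or nitric oxide, 1 of 6 passed in the SOX4 knockout (5.89% of all genes). GAMT, which completes creatine synthesis, stood at 20.6 and 44.2 CPM in the Hep3B pair and 197 and 149 CPM in the knockout pair, and rose by 2.49 (log2; SE 0.46, adjusted p = 0.0288 from edgeR). Its libraries did not overlap. NOS3, a nitric oxide synthase, had 3.17 (adjusted p = 0.0609) from levels of at most 1.77 CPM, and entered the test only through the knockout libraries. For STAT6 siRNA GAMT had 0.65 and AGMAT, agmatinase, 0.25.

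Of the carriers of amino acids, 2 of 8 passed in the SOX4 knockout (5.89% of all genes), in opposite directions. SLC38A3, a glutamine carrier of hepatocytes, stood at 16.4 and 14.9 CPM in the Hep3B pair and 112 and 50.2 CPM in the knockout pair, and rose by 2.45 (SE 0.47, adjusted p = 0.0329 from edgeR). SLC7A2, a carrier of arginine and ornithine into cells, stood at 137 and 173 CPM in the Hep3B pair and 56.1 and 52.8 CPM in the knockout pair, and fell by 1.45 (SE 0.34, adjusted p = 0.0494 from edgeR). SLC7A2 was called under 3 of 13 alternatives, against 8 for SLC38A3. SLC7A1, a related arginine carrier, had a log2 fold change of -1.83 (adjusted p = 0.0770). For STAT6 siRNA SLC38A3 had 0.58 and SLC38A4, a carrier of neutral amino acids, -0.54.

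Of the genes of ornithine and polyamine metabolism, 1 of 11 passed in the SOX4 knockout (5.89% of all genes). PAOX, which oxidizes acetylated polyamines, stood at 0.496 and 0.378 CPM in the Hep3B pair and 3.74 and 2.83 CPM in the knockout pair, and rose by 2.89 (SE 0.67, adjusted p = 0.0494 from edgeR). With 10 and 8 counts in Hep3B and 113 and 57 in the knockout, PAOX passed the filter on low counts through the knockout libraries, and it was called under 4 of 13 alternatives. SMOX, spermine oxidase, had -1.90 (adjusted p = 0.137), with 237 and 57.1 CPM in the Hep3B pair and 23.2 and 53.2 CPM in the knockout pair. OAT, which links ornithine to glutamate, had 0.50, and ODC1, which makes putrescine from ornithine, had -0.45. For STAT6 siRNA the values furthest from 0 were 0.55 for SRM, spermidine synthase, and -0.39 for OAT.

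The list of other hepatic amino acid breakdown enzymes had 2 of 16 passing in the SOX4 knockout (5.89% of all genes), and 15 of the 16 were above 0 (50.4% of all genes). Of these, 3 (AGXT, BHMT and SDSL) entered the test only through the knockout libraries. HPD, of tyrosine breakdown, stood at 2.50 and 4.26 CPM in the Hep3B pair and 29.4 and 21.3 CPM in the knockout pair, and rose by 2.97 (SE 0.47, adjusted p = 0.0223 from edgeR). FTCD, of histidine breakdown, stood at 2.02 and 3.11 CPM in the Hep3B pair and 17.5 and 11.1 CPM in the knockout pair, and rose by 2.54 (SE 0.52, adjusted p = 0.0370 from edgeR). AGXT, a transaminase of glyoxylate, had 2.59 (adjusted p = 0.0780). Both called genes were low in Hep3B and clear of it in the knockout. For STAT6 siRNA 12 of 15 were above 0 (46.3% of all genes), 3 of which (AGXT, KMO and SDSL) entered the test only through the STAT6 siRNA libraries, with SDSL at 1.35 and AGXT at 0.75.

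In the other lists 0 genes passed in either comparison, beside 5.89% of all genes in the knockout and 0% for STAT6 siRNA. Of the 7 proline genes 6 were above 0 in the knockout, against 50.4% of all genes. PRODH, of proline breakdown, had 2.03. PRODH2, of hydroxyproline breakdown, had 2.58 but only 4 and 1 counts in Hep3B, and entered the test through the knockout libraries (22 and 16 counts). For STAT6 siRNA the furthest were PYCR3 (0.87) and ALDH4A1 (0.68). PYCR3 was called when the library number entered the fit as a block, as given further on. Of the 4 genes of bicarbonate, fumarate and malate, FH, which takes up the fumarate released by ASL, had 1.01 in the knockout and CA5B, a mitochondrial carbonic anhydrase, had 0.73. For STAT6 siRNA MDH2 had 0.41 and MDH1 had -0.35. The pyrimidine genes, which use a cytosolic carbamoyl phosphate made by CAD, were close to 0 in the knockout (DHODH 0.29, UMPS 0.29, CAD -0.12). For STAT6 siRNA CAD had 0.47 and DHODH 0.35. Of 13 regulators of the cycle's genes, 8 were above 0 in the knockout, against 50.4% of all genes. NR1H4, a bile acid receptor, was at -1.36 and SIRT3, a mitochondrial deacetylase, at 1.21. For STAT6 siRNA FOXA3 had 0.67 and CEBPA 0.51, both liver transcription factors.

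Markers of cell types were read beside these genes. All 14 hepatocyte markers had rows in both tables; the label gives liver cancer as the cell type. Their summed level was 17950 and 13590 CPM in Hep3B against 51360 and 32120 in the SOX4 knockout. In that comparison 14 of 14 were above 0, against 50.4% of all genes, and 4 passed the test (TTR, APOA1, APOC3 and FGB), against 5.89% of all genes. ALB was the most abundant, at 6836 and 6408 CPM in the Hep3B pair and 24874 and 12327 CPM in the knockout pair. In the siRNA table their sum was 23400 and 22400 CPM with scramble siRNA and 28480 and 27260 with STAT6 siRNA. There 13 of 14 were above 0, against 46.3% of all genes, and 0 passed, as did 0% of all genes. The part of this shift in the urea cycle values was not tested. Of the 4 fetal liver and tumour markers 0 passed in either comparison, beside 5.89% of all genes in the knockout and 0% for STAT6 siRNA. Their sum was 5058 and 1661 CPM in the Hep3B pair and 5549 and 4768 CPM in the knockout pair, with H19 the most abundant.

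Markers of other cells were low, with exceptions. Of the 6 fibroblast and stellate cell markers 3 were tested in the knockout and 1, LUM, passed (5.89% of all genes). LUM rose from 0.572 and 0.693 CPM in Hep3B to 74.8 and 49.0 (log2 fold change 6.67, SE 0.50, adjusted p = 0.00384 from edgeR). COL1A1 had 1.24 and PDGFRA -0.06, and neither passed. DCN and COL3A1, which fibroblasts express strongly, had no row. Of the 6 leukocyte markers 3 were tested and 0 passed (5.89% of all genes). By mean, CD68 was the most abundant in Hep3B and LYZ in the knockout. All 3 were higher in the knockout without overlap (58.3% of all genes did not overlap), with CD14 at a log2 difference of 1.61. All 3 were at an unadjusted p below 0.05 in edgeR's test, against 26.0% of all genes. CD68 stood at 39.4 and 26.3 CPM in the Hep3B pair and 63.7 and 83.5 CPM in the knockout pair. LYZ stood at 42.6 and 5.70 CPM in the Hep3B pair and 98.9 and 311 CPM in the knockout pair. PTPRC, carried by all leukocytes, stood at no more than 0.197 CPM in any library of the knockout table, and CD3E, of T cells, had no row. Of the 5 enterocyte markers 2 were tested and 0 passed (5.89% of all genes), with VIL1 the most abundant and FABP2 and SI without a row. VIL1 stood at 211 and 98.6 CPM in the Hep3B pair and 554 and 360 CPM in the knockout pair, a log2 difference of 1.62. CDX2, an intestinal transcription factor, stood at 7.28 and 7.63 CPM in the Hep3B pair and 2.05 and 1.39 CPM in the knockout pair, a log2 difference of -2.04. These differences had opposite signs, and neither passed edgeR's test (adjusted p = 0.0957 for VIL1 and 0.0685 for CDX2). Of the 5 endothelial markers PECAM1 alone had a row, and its level did not exceed 0.695 CPM. Of the 5 erythroid markers HBA1 alone had a row, only in the knockout table, at up to 0.447 CPM. VIL1 stood at 640 and 530 CPM with scramble siRNA and at 758 and 645 with STAT6 siRNA, without overlap. CDX2 stood at 30.0 and 7.60 CPM with scramble siRNA and at 40.7 and 6.36 with STAT6 siRNA, with overlap. The log2 differences of the leukocyte markers for STAT6 siRNA were 1.15 for CD14, 0.24 for CD68 and -0.30 for LYZ. None of these genes passed there, where 0% of all genes did. CPS1 is also an enzyme of the small intestine, and the part of the markers of these other cells in its value was not tested.

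The genes whose log2 CPM was most like that of CPS1 over the 8 libraries included CORO2A, SLC26A1, MANEAL and KIAA1161, with Pearson's r of 0.94, 0.93, 0.91 and 0.91 among 10987 genes ranked. SLC26A1, an anion carrier, stood at 16.3 and 35.8 CPM in the Hep3B pair, 74.9 and 57.4 in the knockout pair, 75.1 and 63.5 with scramble siRNA and 138 and 71.5 with STAT6 siRNA. The points are 8 libraries from separate tables with 2 libraries per condition, and CPS1 has few counts in some of them, so r is a description. With a prior count of 0.5 in place of 2, 3 of the first 5 genes stayed among them, and with Spearman's correlation 1 did. Among the urea cycle genes themselves, ASL was closest to CPS1 (r = 0.80 over the same libraries) and ARG2 furthest (r = -0.26), while NAGS and ASS1 were closest to each other (r = 0.89).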

How the data were processed

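RNA-seq of 8 Hep3B libraries was used, grouped by their labels. The authors deposited expected counts (estimated read counts per RefSeq transcript, not normalized) in 2 tables, 1 per comparison. The submitters' processing notes name Partek, STAR and hg38. Versions, the quantifier's settings and the use of strand are not given in the sources used here. Transcripts summing to under 10 counts over a table's 4 libraries had been left out. Most of the values for each comparison were not whole numbers.

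The values of a gene's transcripts were added and the sum was rounded. The design had allowed for counts, and the same test was kept. Gene names turned into dates (19 per table) were separated by chromosome. Each table was fitted with edgeR 4.0.16 under R 4.3.3 (low-count filter by filterByExpr, TMM, glmQLFit, glmQLFTest), with Benjamini-Hochberg adjustment over all genes tested and a threshold of 0.05. Nothing in the labels says that replicates came from separate cultures, so p-values measure the spread between these libraries, which may be technical. Printed CPM use 1 TMM scale for all 8 libraries over genes in both tables, which were otherwise filtered separately; per-kilobase values divide each transcript by its length in GENCODE release 29. Alternatives used DESeq2 1.42.0, other normalizations and filters, a block, and offsets from mgcv 1.9.3. The fits were tested on simulated data, of which no result is given or used here. Sequences came from RefSeq.

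The members and lists were chosen with earlier results of these data known. Named genes are the members, SOX4, STAT6, each gene of the neighbouring lists that passed the test, and markers by list. Also named are the 2 genes of each neighbouring list with the largest absolute log2 fold change per comparison, and the 5 most like CPS1. These 5 were taken from genes in both tables with a mean of at least 100 counts over the 8 libraries. MED23, VTI1B, ODC1 and GLUD1 were added after their values were seen. The results of 3 genes that the rule names are not reported here.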

Additional observations from a re-analysis of the deposited data

How the results depend on the processing

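In the SOX4 knockout against Hep3B, 849 genes, 2 urea cycle genes and 9 neighbouring genes were called. DESeq2 called 2160, 2 and 19. Requiring at least 10 counts in every library called 518 genes and 1 urea cycle gene (ASL, since ARG1 then leaves the test). GC and length offsets called 673, 1 (ARG1) and 5, and the share of calls that were higher went from 76.3% to 61.4%; with DESeq2 that share was 63.9%. A fit of all 8 libraries, in which ARG1 was not tested because it has a row in only 1 table, called 438, 0 and 4. Leaving out 1 library called 21 to 2298 genes, 0 to 2 urea cycle genes and 0 to 19 neighbouring genes, with the lowest values without either knockout library (73 genes without library 1, 21 without library 2) and the highest without Hep3B library 1 (1322 genes without Hep3B library 2). Without Hep3B library 2, ARG1 and ARG2 (lower) were the urea cycle genes called. For STAT6 siRNA against scramble siRNA, 0 genes were called under each of these settings. CPS1 with STAT6 siRNA, and ASL and SLC25A13 in the knockout, were above their controls under 13 of 13 alternatives. SLC25A15 in the knockout and ARG2 with STAT6 siRNA were below theirs under 13 of 13. In the knockout CPS1 was above Hep3B under the 12 alternatives that tested it, and ARG1 under 11. A kept sign also held for small differences, such as -0.25 (SE 0.45) for SLC25A15. NAGS and ASS1 in the knockout, and SLC25A13 and SLC25A15 with STAT6 siRNA, changed sign under at least 1 alternative that left no library out. ARG2 in the knockout, and ASL, NAGS and ASS1 with STAT6 siRNA, changed sign only when 1 library was left out. Of the 9 neighbouring genes called, ASNS, GPT2 and HPD were called under 10 of 13 alternatives, GLUD2 and FTCD under 9, GAMT and SLC38A3 under 8, PAOX under 4 and SLC7A2 under 3; without either knockout library none was.

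The labels give both groups of each table the library numbers 1 and 2 and do not say that a number marks a pair. Deviations of libraries with the same number correlated at -0.08 for the knockout and at 0.87 for the siRNA libraries. With the number as a block, the knockout had 982 genes called, 2 urea cycle genes and 11 neighbouring genes, and the siRNA table had 62, 1 (CPS1, higher) and 1 (PYCR3). STAT6 itself, not called without the block, was then called lower with STAT6 siRNA (log2 fold change -2.25, adjusted p = 4.11e-20 from edgeR; -2.36 and 8.60e-47 with the offsets too; 0.899 to 1.00 under the other alternatives). With the block and GC and length offsets, the counts were 60, 0 and 0 for the knockout, where STAT6 was no longer called (adjusted p = 0.0575 from edgeR), and 347, 1 (CPS1) and 4 for STAT6 siRNA.

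With 2 libraries per condition, no library was tested as outlying. CPS1 and ARG1 rest on fewer than 100 counts per library, and depth limits both. The cause of these differences between settings was not tested.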
